A study of Bombyx mori with 3 samples.

Results

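Probes for the mitochondrial respiratory chain and ATP synthase were examined in the fat body of silkworm larvae fed the insecticide phoxim. They were chosen by their descriptions, which had to name NADH dehydrogenase or NADH-ubiquinone reductase, ubiquinol reductase, cytochrome c, its reductase or oxidase, ATP synthase, the ADP/ATP translocase or complex I, and not the vacuolar pump, succinate dehydrogenase, cytochrome P450 or cytochrome b5. This gave 80 of the 23229 gene probes on the array. Of these, 67 described subunits of complexes I, III, IV or V, cytochrome c or the ADP/ATP carrier, 7 described assembly proteins, and 6 matched by wording alone. The 67 probes covered 49 different subunits, and 42 of these subunits were measured.

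The study compared Bombyx mori larvae of the p50 strain, of both sexes, on day 3 of the fifth instar. Treated larvae were fed on mulberry leaves wetted with 4 µg/mL phoxim and control larvae on leaves wetted with water, with 30 larvae in each experiment, and fat body was dissected 24 h later. RNA of a treated and a control group was hybridised together on each of 3 arrays, which the series description calls biological replicates. Each RNA comes from a pool of animals, so the spread between arrays is not a spread between single animals. It holds differences between pools and between hybridisations together.

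The respiratory chain passes electrons from NADH through complex I, ubiquinone, complex III and cytochrome c to oxygen at complex IV, and pumps protons across the inner mitochondrial membrane as it does so. ATP synthase, also called complex V, lets the protons back through its membrane part and makes ATP in its F1 head, and the ADP/ATP translocase then exchanges this ATP for ADP of the cytosol. Most subunits are encoded in the nucleus and a few in the mitochondrial genome. In insects, fat and glycogen are stored in the fat body, which also secretes most blood proteins and detoxifies foreign compounds. Phoxim is an organophosphate that inhibits acetylcholinesterase.

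All ratios are log2 of phoxim over control after loess normalization within the array, so a value below 0 means less signal from the phoxim RNA. A probe was counted as measured when at least 1 of its channels lay above the 95th percentile of the negative control spots on all 3 arrays, which held for 6154 gene probes. The file header of replicate 2 gives the phoxim RNA as Cy3 and the control as Cy5, opposite to replicates 1 and 3 and to the labels, and the header was followed. With 1 array of 3 in that order, a dye effect can be separated from phoxim only by a model with a dye term, and the members' median was then -0.04. Fat body markers (storage proteins, 30K proteins, apolipophorins) were bright: 30 of 53 probes lay above background on all phoxim arrays and 28 on all control arrays, with summed intensities of 465962 to 771563 and 462349 to 571751. Muscle markers were less bright and unequal. Of 54 probes, 21 lay above background on all phoxim arrays, 12 on all control arrays and 11 on no array, with summed intensities of 94615 to 158606 in phoxim and 29004 to 80914 in control RNA. The median ratio of the 26 measured muscle probes was 2.28, 0.06 and 0.63 on replicates 1, 2 and 3, against 0.75, -0.11 and 0.27 for 33 fat body probes. In bulk tissue, fewer cells of a type and less RNA per cell cannot be told apart.

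Of the 80 probes, 56 were measured, and none had an adjusted p under 0.05 in limma with Benjamini-Hochberg adjustment over all 6154 probes. The share called among all probes was 0%, the smallest adjusted p was 0.376 among the members and 0.283 among all probes, and 7 members had an unadjusted p under 0.05. All 7, of which 1 matched by wording alone, were lower with phoxim, where 4.81% of all probes were lower and 6.13% higher at that level. The mean ratio was below 0 for 36 of 56 members (64.3%), against 49.7% of all probes, and this count moved with the settings. It was 15 (26.8%, all probes 31.3%) with median centring, 22 (39.3%, all probes 42.9%) with the deposited ratios and 45 (80.4%, all probes 46.0%) with the labelled dye order of replicate 2. The ratio was lower on all 3 arrays for 14 members (25.0%; 17.1% of all probes) and higher on all 3 for 5 (8.93%; 18.2% of all probes).

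The median ratio of the 56 members was -0.12, with single means from -1.34 to 0.75, against 0.00 for all probes, and this direction depended on the normalization: with each array centred on its median, the members' median was 0.21 and that of all probes 0.24. It also depended on 1 array. The members' median was -0.37, 0.12 and -0.07 on replicates 1, 2 and 3, where all probes had 0.13, -0.06 and 0.00. On replicate 1, 43 of 56 members lay below 0 (43% of all probes did), on replicate 2 it was 23 (54.9%), and on replicate 3 it was 31 (50%). Without replicate 1 the members' median was 0.10. Replicate 1 was also the array on which the muscle markers were highest in the phoxim RNA, and the part of this in the result was not tested. The SD of the members' median over the 3 arrays was 0.248, larger than the median itself.

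**Figure D1:**
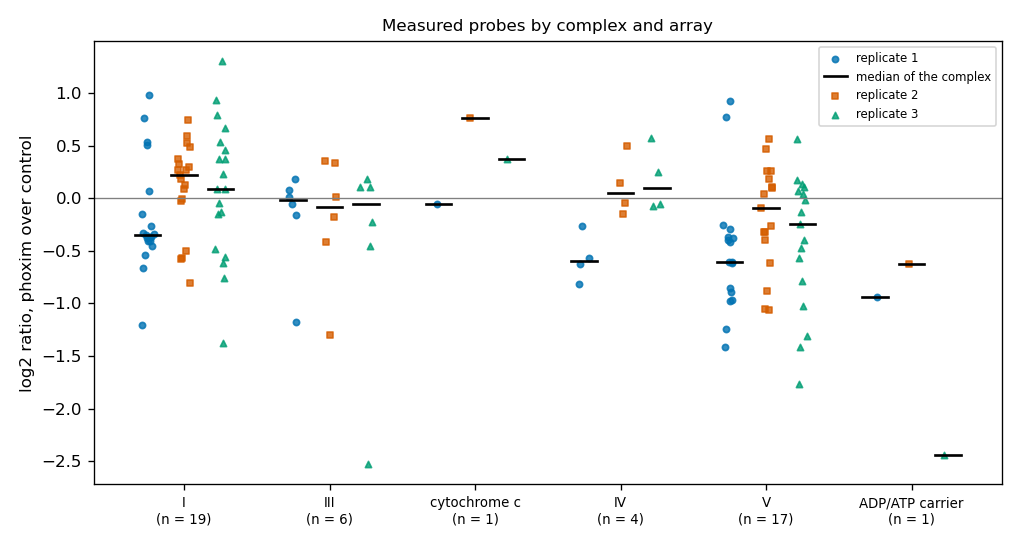
Each point is the log2 ratio of phoxim over control (y axis) of 1 measured probe on 1 array, by complex (x axis), and black lines are the medians of the complex on that array. On replicate 1 the medians of complexes I, IV and V lay at -0.35, -0.59 and -0.60, and on replicate 2 at 0.22, 0.05 and -0.09. Median centring raises the medians of all probes and of these complexes.

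Complex V, the ATP synthase, had 22 probes, of which 17 were measured. Their median ratio was -0.32 after loess, where 14 of 17 means lay below 0, and 0.01 after median centring, where 8 did and all probes were at 0.24. Of all probes, 49.7% had a mean below 0 after loess and 31.3% after median centring. Of the 17, 6 were lower on all 3 arrays (35.3%; 17.1% of all probes) and 0 higher (18.2% of all probes). On replicate 1, 15 of 17 were below 0, on replicate 2 it was 9, and on replicate 3 it was 11. The membrane ring, the head and the stalk are described in turn.

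Subunit c forms the rotating ring of the membrane part, and its probe (sw21875) had the smallest p of all members. Its control intensity was 1642, 2096 and 2567 on replicates 1, 2 and 3 and its phoxim intensity 1019, 1375 and 1177. The phoxim value was the smaller on every array. These intensities are from before normalization and, with replicate 2 in the other dye order, cannot be compared between arrays. The ratios were -0.61, -1.06 and -1.31, with a mean of -0.99 ± 0.36 (SD, n = 3), which is 1.99-fold lower (limma adjusted p = 0.376, 95% interval -1.68 to -0.30). With the labelled dye order of replicate 2 the mean was -0.29.

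The catalytic beta subunit had 2 probes for the same gene, Atpsyn-beta, and 1 probe for another gene model. The first Atpsyn-beta probe (sw21438) read 6592, 3010 and 4930 in control and 3318, 3007 and 3731 in phoxim RNA, with ratios of -0.90, -0.39 and -0.78 and a mean of -0.69 ± 0.26 (SD, n = 3). The second (sw21555) had ratios of -0.85, 0.04 and -1.03, with a mean of -0.61 ± 0.57 (SD, n = 3). The probes of this gene thus gave means that differed by less than their spread, both with the ratio nearest to 0 on replicate 2. The third beta probe (sw19335), of the gene model Bmb032868, had ratios of -0.41, -0.32 and -0.24 and a mean of -0.33 ± 0.08 (SD, n = 3). Their limma adjusted p-values were 0.446, 0.530 and 0.676.

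The gamma subunit, the central shaft that turns inside the head, had 2 measured probes for different gene models, and they varied together between arrays. The probe of LOC732965 (sw13289) had ratios of 0.93, -0.88 and -0.47, and the other (sw05307) had 0.77, -0.61 and -0.12. Both were high on replicate 1 alone, against the other subunits of the enzyme. Their means were -0.14 ± 0.95 and 0.01 ± 0.70 (SD, n = 3), so no direction can be given for gamma. The delta subunit of the head (sw01535) had a mean of 0.06 ± 0.48 (SD, n = 3).

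Most probes of the peripheral stalk and the small membrane subunits had ratios of opposite sign on different arrays. Subunit d of the stalk had 2 measured probes with different gene models. The brighter one (sw00488) had ratios of -0.60, 0.10 and 0.14, with a mean of -0.12 ± 0.42 (SD, n = 3), and the dim one (sw07562) had -0.61, -0.26 and -1.41, with a mean of -0.76 ± 0.59 (SD, n = 3). The dim probe lay above background in phoxim RNA on 2 arrays only, with phoxim intensities of 93, 187 and 34 and control intensities of 223, 119 and 280. The probe of coupling factor 6 (sw06216), another stalk subunit, was the brightest of the complex and had ratios of -0.25, 0.26 and 0.07, with a mean of 0.03 ± 0.26 (SD, n = 3). The O, f, g, e and coupling factor B probes ranged in their means from -0.39 for O (sw06908) to -0.02 for e (sw15520), and each was below 0 on replicate 1. Over the 9 measured membrane and stalk probes the median was -0.20 after loess and 0.04 after median centring (all probes 0.24). On replicates 1, 2 and 3 it was -0.61, 0.10 and 0.07 after loess.

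Another 2 measured probes are described as ATP synthase with no subunit named. The probe of LOC692926 (sw00394) read 9852, 4997 and 9708 in control and 7157, 3047 and 3859 in phoxim RNA, lower with phoxim on each array. Its ratios of -0.37, -1.06 and -1.76 gave a mean of -1.06 ± 0.70 (SD, n = 3), or 2.09-fold lower (limma adjusted p = 0.394), and -0.36 with the labelled dye order. The array files annotate it with rotary proton ATPase activity and give no mitochondrial location, so its place in complex V rests on the word synthase. The probe of LOC692925 (sw20262) had ratios of -0.97, -0.32 and -0.57 and a mean of -0.62 ± 0.32 (SD, n = 3, limma adjusted p = 0.493).

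**Figure D2:**
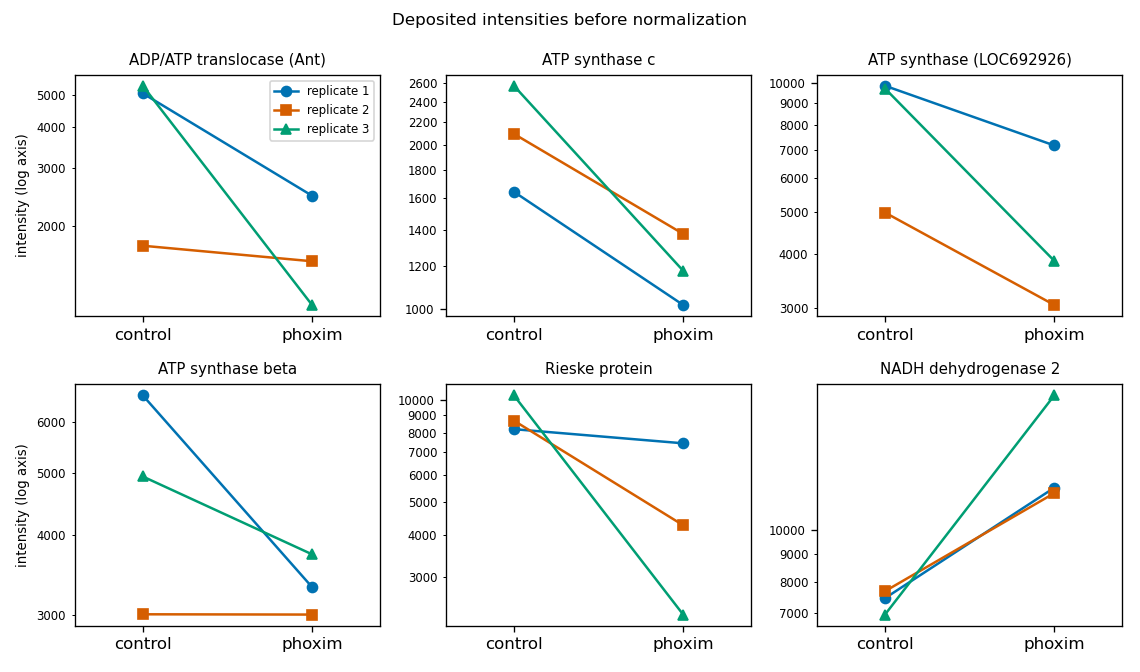
Deposited intensity (y axis, log scale, arbitrary units) of 6 probes in control and phoxim RNA (x axis), before normalization; each line joins both RNAs of 1 array. Phoxim intensity was lower on each array for the 5 nuclear-encoded probes, by as little as 3010 against 3007 for ATP synthase beta on replicate 2, and higher on each array for NADH dehydrogenase subunit 2.

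The ADP/ATP translocase, which carries ATP out of the mitochondrion, had the lowest mean ratio of all members. The probe of Ant (sw01832) read 5074, 1748 and 5351 in control and 2480, 1568 and 1155 in phoxim RNA. Replicate 3 showed the largest difference and replicate 2 the smallest. The ratios were -0.94, -0.63 and -2.45, with a mean of -1.34 ± 0.97 (SD, n = 3), or 2.53-fold lower (limma adjusted p = 0.390, 95% interval -2.30 to -0.37). Without replicate 3 the mean was -0.78. A second probe with this description (sw05687) was not measured, with intensities of 23 to 162 in phoxim and 106 to 144 in control RNA.

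Complex III passes electrons from ubiquinol to cytochrome c, and 6 of its 9 probes were measured. Their median was -0.20 after loess, with 5 of 6 below 0 (49.7% of all probes). After median centring it was 0.15 (all probes 0.24), with 1 of 6 below 0 (31.3% of all probes). On replicates 1, 2 and 3 the medians after loess were -0.02, -0.08 and -0.06. On each array 3 of 6 probes lay below 0 (43%, 54.9% and 50% of all probes). The complex was unequal in itself, with 1 probe far below the others. This was a probe of the Rieske iron-sulfur protein, which takes the electron from ubiquinol (sw15302, LOC100134921). It read 8190, 8680 and 10306 in control and 7439, 4262 and 2322 in phoxim RNA, and its ratios of -0.05, -1.30 and -2.53 ranged from no difference on replicate 1 to the lowest value of any member on replicate 3. The mean was -1.29 ± 1.24 (SD, n = 3), or 2.45-fold lower (limma adjusted p = 0.430). It was -0.43 with the labelled dye order and -0.68 without replicate 3.

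Of the other 4 probes described as Rieske protein, 1 was measured. It (sw17822) had ratios of 0.08, -0.18 and -0.45 and a mean of -0.18 ± 0.27 (SD, n = 3), with the arrays in the same order as for sw15302 and a smaller range. Core protein II, from Uqcrc2 (sw06381), a structural subunit on the matrix side, had ratios of 0.02, -0.42 and -0.22 and a mean of -0.21 ± 0.22 (SD, n = 3). Cytochrome c1 (sw17765), which hands the electron to cytochrome c, had the mean nearest to 0 of the complex, -0.01 ± 0.13 (SD, n = 3). The subunit described as 14 kDa, from Uccr (sw05715), was the brightest probe of the complex and was higher on all 3 arrays at 0.19, 0.33 and 0.19, with a mean of 0.24 ± 0.08 (SD, n = 3, limma adjusted p = 0.783). With the labelled dye order of replicate 2 that mean was 0.01.

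Cytochrome c, the soluble carrier between complexes III and IV, had 1 probe (sw15825). It read 3545, 921 and 2573 in control and 3255, 2297 and 4276 in phoxim RNA. The ratios of -0.05, 0.77 and 0.38 gave a mean of 0.36 ± 0.41 (SD, n = 3, limma adjusted p = 0.672), which was -0.15 with the labelled dye order.

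Complex IV, cytochrome c oxidase, reduces oxygen to water, and 4 of its 7 probes were measured, all for nuclear-encoded subunits that surround the catalytic core. Their means lay between -0.18 and 0.05, with a median of -0.12 after loess and 0.22 after median centring (all probes 0.24). Subunit VIc (sw15035), the brightest, had ratios of -0.62, 0.15 and -0.07 and a mean of -0.18 ± 0.40 (SD, n = 3). Subunit Va (sw09955) had -0.81, 0.50 and -0.06 and a mean of -0.12 ± 0.66 (SD, n = 3), and subunit VIIc (sw03132) had -0.56, -0.05 and 0.25 and a mean of -0.12 ± 0.41 (SD, n = 3). The probe of subunit IV (sw00800) had a mean of 0.05 ± 0.45 (SD, n = 3). All 4 probes were below 0 on replicate 1 and 2 of 4 on each of the other arrays, and none kept its sign over the 3 arrays. Of all probes, 17.1% were lower and 18.2% higher on all 3 arrays.

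Complex I, the entry point for electrons of NADH, had 26 probes, of which 19 were measured. Its median was 0.03 after loess and 0.37 after median centring (all probes 0.24), with 9 of 19 means below 0 after loess (49.7% of all probes). On single arrays the medians were -0.35, 0.22 and 0.09. On all 3 arrays, 4 of 19 probes were lower (21.1%; 17.1% of all probes) and 3 higher (15.8%; 18.2% of all probes).

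The arm of complex I that takes up electrons holds the flavoproteins and iron-sulfur proteins. All 5 measured probes of this arm had a mean below 0 after loess (49.7% of all probes), with a median of -0.29. On replicates 1, 2 and 3 the median was -0.34, 0.09 and -0.48. The number of the 5 probes below 0 was 5, 2 and 5 (43%, 54.9% and 50% of all probes). On all 3 arrays, 2 of 5 were lower (17.1% of all probes). After median centring 1 of 5 lay below 0 (31.3% of all probes) and the median was 0.04 (all probes 0.24). Fe-S protein 2 (sw13762, LOC732900), which lies next to the ubiquinone site, had ratios of -0.15, -0.56 and -1.38 and a mean of -0.70 ± 0.62 (SD, n = 3, limma adjusted p = 0.498), and of -0.36 without replicate 3. Flavoprotein 1 (sw08571), which oxidises NADH, had a mean of -0.33 ± 0.42 (SD, n = 3). Fe-S protein 3 (sw06523) had a mean of -0.29 ± 0.50, Fe-S protein 8 (sw00924, Ndufs8 in RefSeq) of -0.15 ± 0.22 and Fe-S protein 7 (sw20309) of -0.09 ± 0.29 (SD, n = 3).

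Among accessory subunits of complex I, which carry no redox centre, alpha subcomplex 8 (sw14910) had the smallest p of the complex. It read 2043, 676 and 848 in control and 810, 669 and 547 in phoxim RNA, lower with phoxim on each array and nearly equal on replicate 2. The ratios were -1.21, -0.58 and -0.61, with a mean of -0.80 ± 0.36 (SD, n = 3), or 1.74-fold lower (limma adjusted p = 0.430), and -0.42 with the labelled dye order. The subunit described as 42 kDa (sw15043) had ratios of -0.45, -0.80 and -0.55 and a mean of -0.60 ± 0.18 (SD, n = 3, limma adjusted p = 0.480), which was -0.07 with the labelled dye order.

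Other accessory subunits had ratios above 0. The B14.7 subunit (sw11541, LOC693099) had ratios of 0.54, 0.30 and 0.67 and a mean of 0.51 ± 0.19 (SD, n = 3, limma adjusted p = 0.536). The acyl carrier protein (sw08569), which serves mitochondrial fatty acid synthesis as well, was also higher on all 3 arrays, with a mean of 0.34 ± 0.19 (SD, n = 3). Of the 5 measured probes of the beta subcomplex, in the membrane arm, 4 had a mean above 0 and 1 below 0 (49.7% of all probes were below 0). Their median was 0.12 after loess and 0.46 after median centring (all probes 0.24), but -0.21 with the labelled dye order. Beta subcomplex 9 had 2 measured probes that differed. The dim one (sw15225) had ratios of 0.98, -0.03 and 1.30 and a mean of 0.75 ± 0.69 (SD, n = 3), with the control RNA above background on 1 array only, and the bright one (sw09392) had -0.37, 0.59 and -0.13 and a mean of 0.03 ± 0.50 (SD, n = 3).

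**Figure D3:**
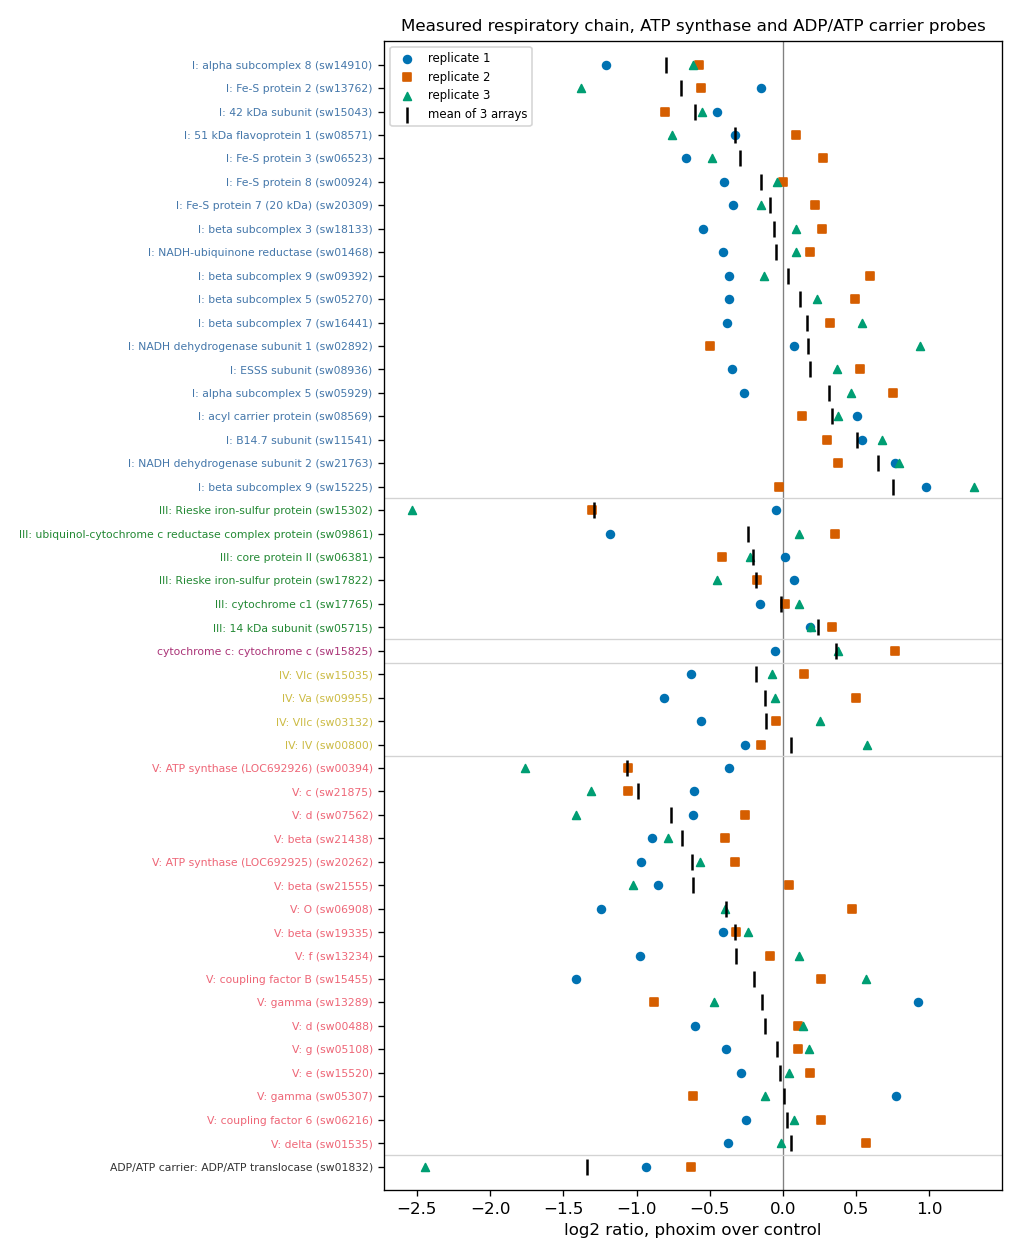
Log2 ratio of phoxim over control (x axis) of the 48 measured probes of subunits, cytochrome c and the ADP/ATP carrier (y axis, complex, subunit and probe), with 1 marker per array and a black bar at the mean of 3. The lowest means are those of the ADP/ATP translocase (-1.34), the Rieske probe sw15302 (-1.29) and ATP synthase LOC692926 (-1.06), and the replicate 1 markers of complex IV all lie below 0.

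Subunits encoded in the mitochondrial genome had 4 probes, of which 2 were measured, both of the membrane core of complex I. NADH dehydrogenase subunit 2 (sw21763) had the highest signal of the complex I probes over both RNAs together, though not in control RNA alone, and read 7455, 7681 and 6950 in control and 11960, 11685 and 17757 in phoxim RNA. The phoxim value was the larger on every array, before normalization. Its ratios of 0.77, 0.38 and 0.80 gave a mean of 0.65 ± 0.23 (SD, n = 3), or 1.57-fold higher (limma adjusted p = 0.463, 95% interval -0.01 to 1.31), and 0.40 with the labelled dye order. NADH dehydrogenase subunit 1 (sw02892) had ratios of 0.07, -0.50 and 0.94 and a mean of 0.17 ± 0.72 (SD, n = 3), within its spread of 0. The probes of cytochrome c oxidase subunits II (sw21739) and 3 (sw16919) were not measured, with phoxim intensities of at most 208 and 35. The 46 measured nuclear-encoded probes had a median of -0.13 after loess and 0.21 after median centring (all probes 0.24). With 2 mitochondrial probes the difference between the genomes was not tested.

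Probes described as the same subunit could be set against each other. The Atpsyn-beta pair and the gamma pair followed each other from array to array, while the third beta probe (sw19335), the d pair and the beta subcomplex 9 pair did not. The Rieske pair had the arrays in the same order, with a smaller range for sw17822.

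**Figure D4:**
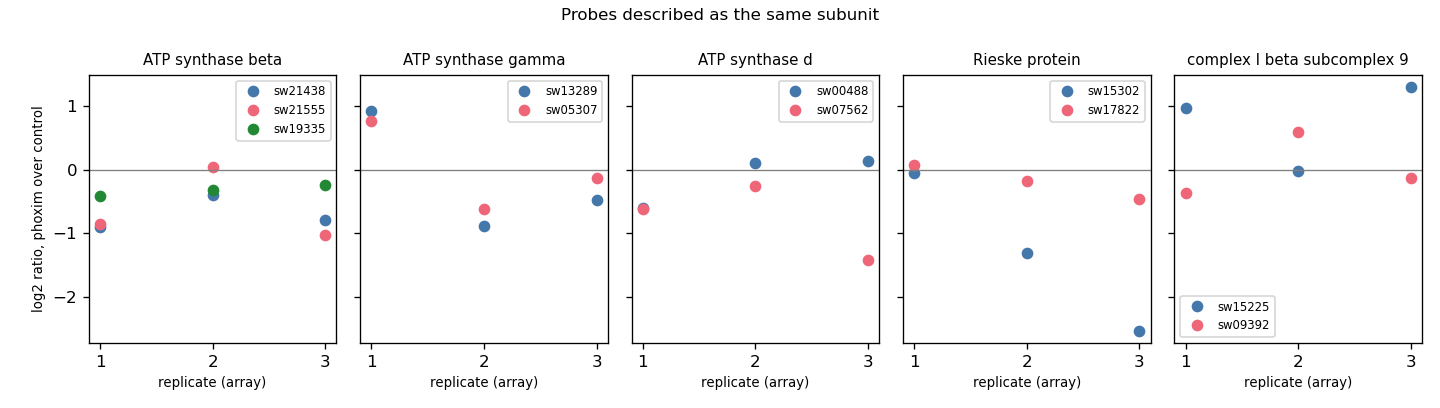
Log2 ratio of phoxim over control (y axis) on each array (x axis) for probes described as the same subunit, 1 colour per probe. The gamma probes lie at 0.93 and 0.77 on replicate 1 and below 0 on the others, and the Rieske probes lie at -2.53 and -0.45 on replicate 3.

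Across the 48 measured probes of subunits, cytochrome c and the carrier, Pearson's r between arrays was 0.65 for replicates 2 and 3, 0.30 for replicates 1 and 3, and -0.09 for replicates 1 and 2. Over all 6154 probes the same values were 0.27, 0.35 and 0.03. With the labelled dye order of replicate 2, r was -0.65 for replicates 2 and 3 and 0.09 for replicates 1 and 2 across the 48 probes, and -0.27 and -0.03 over all probes. These are correlations across probes, which share the array and the dyes and are not independent replicates. Replicates 2 and 3 had opposite dye orders per the file headers. Among the probes low on both were the Rieske probe sw15302, ATP synthase LOC692926, subunit c and the ADP/ATP translocase. The 42 kDa subunit, Fe-S protein 2, alpha subcomplex 8 and the gamma probe sw13289 were also below 0 on both.

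**Figure D5:**
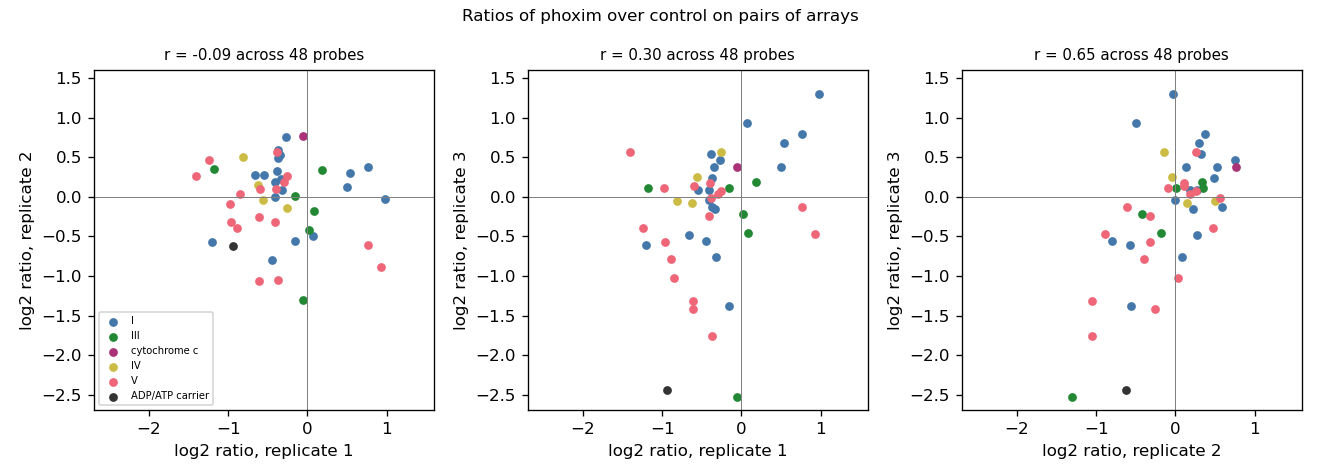
Log2 ratio of phoxim over control on 1 array against another for 48 measured probes, coloured by complex, with Pearson's r across probes above each panel. The points follow the diagonal most closely for replicates 2 and 3 (r = 0.65) and do not follow it for replicates 1 and 2 (r = -0.09), with the dye order of the file headers; with the labelled order these values are -0.65 and 0.09.

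Of 7 assembly proteins, 4 were measured, with a median of -0.06 after loess and 0.23 after median centring (all probes 0.24). COX17 (sw10827), which delivers copper to complex IV, was higher on all 3 arrays with ratios of 1.05, 0.40 and 0.08 and a mean of 0.51 ± 0.49 (SD, n = 3, limma adjusted p = 0.578). The oxidase assembly 1-like protein (sw13376), which inserts proteins into the inner membrane, COX10 (sw06308), which makes the heme of complex IV, and holocytochrome c synthase (sw16412), which joins heme to cytochrome c, had means of -0.17 ± 0.59, -0.15 ± 0.63 and 0.03 ± 0.42 (SD, n = 3). All 3 were below 0 on replicate 1 and above 0 on replicate 2.

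Of the 6 probes that matched by wording alone, 4 were measured, and they belong to RNA processing, vesicle transport, a transcription factor and another reductase. The pre-mRNA cleavage factor Clp1 (sw06786) had ratios of -0.95, -0.13 and -1.55 and a mean of -0.88 ± 0.71 (SD, n = 3, limma adjusted p = 0.441), and a coatomer probe (sw08829) had -0.02, -0.70 and -1.35 and a mean of -0.69 ± 0.66 (SD, n = 3), with phoxim RNA above background on 2 arrays. Without these 6 probes the members' median was -0.12 over 52 probes.

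Of the 24 members that were not measured, 14 lay above background in neither RNA on any array. By group, 7 of the 24 belong to complex I, 3 to complex III, 3 to complex IV, 5 to complex V, 1 to the ADP/ATP carrier, 3 to assembly proteins and 2 to the wording matches. They include 3 Rieske probes, 3 ATP synthase beta probes and 1 gamma probe, for subunits that another probe measured, and subunits with no measured probe, such as beta subcomplexes 8 and 10 of complex I. The probe of Fe-S protein 4 (sw03796) was bright on replicates 1 and 3, with 2356 and 2786 in phoxim and 3289 and 1838 in control RNA, but read 8 and 0 on replicate 2, so it did not pass.

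Other genes of the pathway were taken from lists by description, and none of their probes had an adjusted p under 0.05 in limma. An unadjusted p under 0.05 was found for lower ratios in 3 probes of the vacuolar pump and 1 probe each of complex II and the citrate cycle. The carrier and assembly lists each held 1 more, an aquaporin (sw15479) and a nucleosome assembly protein (sw21923), which matched by wording alone. Higher ratios at that level were found in 1 mitochondrial carrier probe and 1 arginine kinase probe. Of all probes, 4.81% were lower and 6.13% higher at that level. Succinate dehydrogenase, the complex II of the chain, had 2 of 5 probes measured, which were opposite: a flavoprotein probe (sw05999) had a mean of -0.70 ± 0.27 and another probe (sw08124) of 0.49 ± 0.70 (SD, n = 3). The citrate cycle, which makes the NADH that complex I uses, matched 33 probes with 13 measured and a median of -0.47. After removal of matches by wording, made with their values known, 9 of 26 were measured, with a median of -0.59 after loess and -0.32 after median centring. Of these 9, 8 had a mean below 0 (49.7% of all probes) and 5 were lower on all 3 arrays (17.1% of all probes), among them malate dehydrogenase (sw14808) at -0.56, -0.45 and -1.87.

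The vacuolar proton pump, a rotary enzyme related to ATP synthase that spends ATP, had 10 of 18 probes measured and a median of -0.55 after loess and -0.21 after median centring. Its 16 kDa proteolipid, LOC778463 (sw07674), which forms the ring as subunit c does in ATP synthase, had ratios of -0.59, -1.27 and -1.72 and a mean of -1.19 ± 0.57 (SD, n = 3, limma adjusted p = 0.348). Subunit B, LOC100037422 (sw00795), had -0.62, -0.999 and -2.19 and a mean of -1.27 ± 0.82 (SD, n = 3, limma adjusted p = 0.376). These 2 probes were named for the smallest p of the pump, and 3 of its 10 measured probes were lower on all 3 arrays (17.1% of all probes).

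The list of mitochondrial carriers matched 45 probes with 20 measured and a median of -0.29. Without nucleoporins and aquaporins 7 of 17 were measured, with a median of -0.28, from Mtch (sw10500), a carrier homolog, at -0.65 ± 0.53 to a sideroflexin probe (sw20006) at 0.91 ± 0.40 (SD, n = 3). Assembly factors and electron carriers matched 31 probes with 10 measured and a median of -0.19, of which 3 described electron carriers or copper and ubiquinone factors, with a median of -0.27. Of the adenylate and arginine kinases, which buffer ATP, 3 of 8 were measured. Arginine kinase LOC692924 (sw01402), a main enzyme of insect muscle, had ratios of 3.36, 1.54 and -0.09. Replicate 1 was the highest, as it was for the muscle markers.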

How the data were processed

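RNA was amplified by in vitro transcription (T7 polymerase) and its cDNA carried Cy5 or Cy3, per the labels' protocols. The intensities of both channels were used as deposited, as background-subtracted values, since some lie below 0. No header or label read here names the scanner or the background method. The deposited ratio is phoxim over control per the file headers, normalized by the authors in a way that no header or label states, and the deposited log2 values are the log2 of that ratio (medians 0.01, -0.02 and 0.05), with centring unknown and scale and direction known.

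Intensities were corrected with normexp (offset 50) and loess in limma 3.58.1 (R 4.3.3), with control spots at weight 0, and turned to phoxim over control by the file headers. The mean of 3 arrays was tested against 0 with lmFit and eBayes, two-sided, over 6154 probes with Benjamini-Hochberg adjustment at 0.05. The script was tested on simulated data. The design had foreseen separate background columns, and normexp was applied to the subtracted values instead.

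The members, complexes, lists (complex II, assembly factors and electron carriers, mitochondrial carriers, adenylate and arginine kinases, citrate cycle, vacuolar pump, fat body and muscle markers) and tests were chosen with earlier results of these data known. Median ratios of the other marker lists were 0.30 for hemocytes (11 probes measured), 0.12 for midgut (15), -0.17 for silk gland (4), -0.03 for epidermis and trachea (23), -0.55 for Malpighian tubules (10, mostly the vacuolar pump) and -0.07 for gonads (15). These lists were not cleared of matches by wording. Their probes with the smallest p are described as a DNA repair protein for hemocytes, a serine protease inhibitor for midgut and fibroinase for silk gland. Named probes are the 3 with the smallest p and the one with the highest signal of each complex, those at 0.5 or more in size with 1 sign on all arrays, mitochondrially encoded subunits, and all measured probes of a subunit that has several. Further members named as examples were chosen after their values were seen. Of the members, 27 carried a gene ID, 48 only a gene model of the array and 5 neither, and all 26 distinct IDs are in the RefSeq table of assembly ASM3026992v2. No measured member was saturated. The number of arrays limits the precision.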

Additional observations from a re-analysis of the deposited data

How the results depend on the processing

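In no setting did a member reach an adjusted p under 0.05 in limma. The members' median of -0.12 was 0.21 with median centring (all probes 0.24), 0.07 with the deposited ratios (all probes 0.09), and -0.20 with the labelled dye order of replicate 2; leaving out 1 array gave 0.10, -0.23 and -0.14, so that without replicate 1 it changed sign. Complex I was at 0.37 with median centring and complex V at 0.0124. Complex III was at 0.15 with median centring, -0.000456 with the deposited ratios, -0.0112 with no filter on dim probes, -0.0420 with the labelled dye order, -0.14 with a dye term and -0.14 with array weights, and at -0.15 to -0.13 without 1 array. Cytochrome c was at -0.15 with the labelled dye order. Of 56 measured members, 19 had 1 sign on all arrays. Of all 6154 probes it was 2172, with 17.1% lower and 18.2% higher on all 3 arrays. The members' count was 10 with median centring and 24 to 38 without 1 array, where fewer arrays have to agree. For these settings the count over all probes is not given.

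Of 31 named probes, 19 kept their sign in all settings run and 12 did not, and the cause was not tested. Probes named for a ratio of 1 sign on all arrays could not change sign when 1 array was left out. The count of 19 is thus partly set by how the probes were named. Among the 19, the labelled dye order brought Fe-S protein 2 to -0.32, B14.7 to 0.30, COX17 to 0.24 and the Atpsyn-beta probe sw21438 to -0.43, and median centring brought the latter to -0.34, sw21555 to -0.26 and LOC692925 to -0.27. With median centring the median of all probes was itself 0.24. The mean was then 0.21 for sw00488, 0.22 for sw03132, 0.14 for sw06381, 0.22 for sw09955, 0.20 for sw13289, 0.16 for sw15035 and 0.16 for sw17822. With the deposited ratios it was 0.12 for sw00488, 0.20 for sw03132, 0.0625 for sw09955, 0.0807 for sw13289 and 0.0180 for sw15035. With the labelled dye order it was -0.15 for sw06216, 0.0699 for sw06381, -0.36 for sw09392, 0.45 for sw13289 and -0.15 for sw15825. A dye term gave -0.15 for sw05307 and 0.0329 for sw09955, and array weights gave 0.0017 for sw00488, 0.0261 for sw03132 and -0.11 for sw05307. Leaving out 1 array gave ranges that crossed 0 for 9 probes. They ran from -0.249 to 0.121 for sw00488, -0.212 to 0.504 for sw02892, -0.305 to 0.103 for sw03132, -0.370 to 0.323 for sw05307, -0.0903 to 0.166 for sw06216, -0.248 to 0.231 for sw09392, -0.435 to 0.222 for sw09955, -0.679 to 0.226 for sw13289 and -0.350 to 0.0362 for sw15035.

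Each array pairs a phoxim and a control RNA, so the within-array ratio is itself the paired value, and it was tested throughout. The settings with only subunits or without wording matches, and the correlations with the labelled dye order, were chosen after seeing the data. The groups within complexes I and V, such as the arm that takes up electrons, the beta subcomplex and the stalk, were not planned. Probes near background limit what can be said of the subunits that were not measured.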
